A study of Mus musculus with 11 samples.

Results

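The genes described here run the folding and export line of the endoplasmic reticulum (ER), the compartment in which secreted proteins are made. The set holds 37 genes chosen by symbol: 11 chaperones and co-chaperones, 4 disulfide isomerases, 4 genes of ER-associated degradation, 3 stress sensors, 5 transcription factors, 2 targets of the factor ATF4, 4 genes of the import channel (translocon) and 4 of the export coat. Of these, 36 had a row under their symbol among the 37991 genes of the count table, and Mia3 was not analysed here. All 36 had reads in each of the 11 libraries and passed the filter on low counts.

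Proteins bound for secretion enter the ER through the Sec61 channel, fold there with chaperones and enzymes that form disulfide bonds, and leave in vesicles with a COPII coat, while misfolded proteins are sent back to the cytosol for degradation. When unfolded protein builds up, the sensors IRE1 (Ern1), PERK (Eif2ak3) and ATF6 start the unfolded protein response: IRE1 splices Xbp1 messenger RNA, PERK phosphorylates an initiation factor so that Atf4 is translated, and ATF6 is cut into a transcription factor. Fibroblasts secrete collagen in bulk and lean on this machinery, and the membrane-bound factors Creb3l1 and Creb3l2 are known from bone and cartilage for driving secretory genes. Counts per gene show neither the splicing of Xbp1 nor the translation of Atf4 nor the cleavage of Atf6.

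The study sequenced RNA of spinal cord cells from Col1a1GFP mice, C57BL/6 animals in which green fluorescent protein reports use of the collagen gene Col1a1, so that the sort takes cells by use of that gene and not by a cell type. The cords were dissociated by chemical and mechanical means and the fluorescent cells were sorted by flow cytometry. The sorted groups were healthy mice (control, n = 3, replicates 1, 3 and 4) and mice with experimental autoimmune encephalomyelitis (EAE), a model of multiple sclerosis, at 5 days (D5, n = 3) and 10 days (D10, n = 3) after symptoms began. Pools of 2 to 3 cords made up each sorted library and are described as biological replicates. The other group was whole spinal cord (n = 2, replicates 1 and 3), each from 1 cord of a healthy C57BL/6 mouse without the reporter. These 2 libraries carry the same sorting protocol in their labels, but the series design describes a homogenate, and the latter was followed here. All groups share the C57BL/6 strain, and neither the age nor the sex of the mice nor the way EAE was induced is given in the sources used here.

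Library totals ran from 7123291 to 12238751 counts. Markers of fibroblasts (8 genes, among them Col1a1, Pdgfra and Dcn) summed to 22790 to 27820 CPM (library-size-scaled counts, with TMM factors) in the sorted controls and to 174.6 to 299.7 CPM in whole cord, while neuronal markers stood at 7.03 to 24.1 CPM in the sorted controls against 7451 to 8485 CPM in cord. Mural cell markers summed to 2375 to 4133 CPM in the sorted controls and to 180.9 to 280.4 CPM in cord. Of the 8 fibroblast markers 2 were higher and 6 lower at D5, and 2 higher and 2 lower at D10, although their sum, led by collagen genes, was 26380 to 36250 CPM at D5 and 28820 to 54190 CPM at D10 against 24210 to 29900 CPM in the controls on the scale of the sorted libraries. Mural markers stood at 1294 to 2278 CPM at D10, below the controls (2524 to 4441 CPM), with 3 of 8 called lower. At D5 they stood at 2589 to 3926 CPM, with 3 higher and 1 lower, and 3 of the 8 were called lower at D10 than at D5, among 9 genes called lower in all. The D10 libraries differed most among themselves: D10 replicates 2 and 3 lay at a chi-square of 53.1 per gene, against 9.27 to 30.8 for the other 9 pairs of replicates. Where leaving out D10 replicate 3 or another library ends the call of a member, this is given beside the result. Calls of genes outside the set were not checked in this way. In RNA of bulk samples, fewer cells of a type and less RNA per cell cannot be told apart.

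Promoter sequences are shown first because several members are known targets of the factors in the same set. RefSeq windows from GRCm38.p6 (250 bases before and 50 after the start of the gene) matched 32 of the 37 members by symbol. The ER stress response element, which ATF6 and XBP1 are known to bind together with the factor NF-Y, was searched, like all motifs here, on both strands as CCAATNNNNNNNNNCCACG, with 9 free bases between its ends. Variants of the element were not searched. The exact form was found in 8 of 32 members (25%) and in 37 of 27025 genes with a window (0.137%). These shares describe a set that was chosen to include known targets of these factors, and no test was run on them. The 9 matches are listed from the CCAAT end to the CCACG end, with those ends in capitals.
Hspa5: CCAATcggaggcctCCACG
Hsp90b1: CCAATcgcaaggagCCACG
Hsp90b1 (second): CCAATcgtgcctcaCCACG
Calr: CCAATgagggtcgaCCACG
Canx: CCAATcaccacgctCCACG
Dnajc3: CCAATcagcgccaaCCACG
Creld2: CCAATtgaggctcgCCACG
Pdia6: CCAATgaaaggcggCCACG
Syvn1: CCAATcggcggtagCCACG

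In GRCm38.p6 the elements lie at chr2:34772025-34772043 (Hspa5), chr10:86705638-86705656 (Hsp90b1), chr10:86705533-86705551 (Hsp90b1), chr8:84847075-84847093 (Calr), chr11:50325800-50325818 (Canx), chr14:118937827-118937845 (Dnajc3), chr15:88819520-88819538 (Creld2), chr12:17266491-17266509 (Pdia6) and chr19:6046532-6046550 (Syvn1). Hsp90b1, Calr and Canx are genes of the minus strand and the other 5 of the plus strand. The elements of Calr and Creld2 and the second of Hsp90b1 run against the direction of their gene. They lie between -212 (Hsp90b1) and -44 (Syvn1) from the start site. Of the 8 genes, 6 are chaperones or co-chaperones, Pdia6 is a disulfide isomerase and Syvn1 a ligase of ER-associated degradation. Among 129 other genes of the same pathways with a window, 1 held the element (0.775%, Derl3).

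The upstream 250 bases of 3 of these genes follow, in the direction of the gene, because their values differ among themselves below: Hspa5 (plus strand, chr2:34771840-34772089), Calr (minus strand, chr8:84846932-84847181) and Pdia6 (plus strand, chr12:17266339-17266588). Capitals mark the ends of the ER stress response element and, in Hspa5, also the 7 bases of the core of the unfolded protein response element. In Calr the element reads from its CCACG end.
Hspa5: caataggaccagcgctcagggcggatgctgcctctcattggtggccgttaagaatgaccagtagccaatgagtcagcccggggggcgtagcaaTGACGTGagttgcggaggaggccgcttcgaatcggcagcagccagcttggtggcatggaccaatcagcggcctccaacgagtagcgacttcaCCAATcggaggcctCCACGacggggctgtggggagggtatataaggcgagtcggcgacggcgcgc
Calr: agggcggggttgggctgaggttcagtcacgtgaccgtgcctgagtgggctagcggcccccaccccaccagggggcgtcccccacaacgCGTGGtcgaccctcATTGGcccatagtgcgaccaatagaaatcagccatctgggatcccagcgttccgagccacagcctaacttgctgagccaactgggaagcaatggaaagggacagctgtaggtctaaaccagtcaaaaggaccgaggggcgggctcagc
Pdia6: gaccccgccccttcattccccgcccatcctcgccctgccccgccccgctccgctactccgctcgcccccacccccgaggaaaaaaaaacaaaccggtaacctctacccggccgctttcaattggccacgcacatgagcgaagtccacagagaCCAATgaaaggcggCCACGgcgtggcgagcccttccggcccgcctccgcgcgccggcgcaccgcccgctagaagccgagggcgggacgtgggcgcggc

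The core of the unfolded protein response element, TGACGTG, which XBP1 is known to bind and whose letters TGACGT are also part of the cyclic AMP response element, was found in 4 of 32 members (12.5%) and in 2.22% of all genes and 9.3% of the other pathway genes with a window. These were Hspa5 and the export genes Sec23a, Sec24d and Mia3. The C/EBP-ATF element TGATGNAA, which ATF4 is known to bind, was found in 3 members (9.38%, against 4.51% of all genes and 8.53% of the other pathway genes), among them both ATF4 targets of the set. No match of one motif overlapped a match of another in these windows. The 3 matches of the C/EBP-ATF element follow, all of them in capitals.
Asns (chr6:7693225-7693232): TGATGAAA
Trib3 (chr2:152344039-152344046): TGATGTAA
Herpud1 (chr8:94386317-94386324): TGATGCAA

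The first question was how these genes in the sorted cells of EAE mice compare with those of healthy mice. At D5, 6 members rose: the disulfide isomerases Pdia4, Pdia6 and P4hb, the translocon genes Sec61b and Serp1, and Creld2. In the same libraries 5 fell: the sensor Eif2ak3 and the transcription factors Atf4, Ddit3, Creb3l1 and Creb3l2. At D10 the same 6 rose together with Calr, Dnajb11 and Sec61a1, and Eif2ak3 fell. Genes were called at an adjusted p under 0.05 in edgeR's quasi-likelihood test with Benjamini-Hochberg adjustment over all 15972 genes tested.

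Against the background of all genes, the count at D5 was not large. The 6 rises were 16.7% of 36 members, beside 13.2% of all genes called higher, and the 5 falls were 13.9%, beside 10.7% called lower. At D10 the 9 rises were 25% of members beside a background of 8.38%, and the 1 fall was 2.78% beside 4.99%. The median log2 fold change of the members was 0.21 at D5 and 0.33 at D10, against 0.0011 and 0.012 over all genes. Libraries of EAE and control did not overlap for 15 higher members (41.7%, background 22.8%) and 7 lower ones (19.4%, background 19.1%) at D5, and for 15 higher (41.7%, background 17%) and 2 lower (5.56%, background 14.1%) at D10. Both times were set against the same 3 control libraries, so their calls are not independent of each other.

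The counts changed when 1 library was left out, which also leaves fewer libraries for the test. Only libraries of the 2 groups compared were left out in turn. Whichever of these was left out, Sec61b, Pdia6, Serp1, Eif2ak3, Creb3l1 and Creb3l2 kept their calls at D5, and Sec61b and Dnajb11 theirs at D10. At D5, 3 members rose without control replicate 1 or without D5 replicate 1, and 3 fell without control replicate 4 or without D5 replicate 3. At D10, 2 rose without D10 replicate 3 (Sec61b and Dnajb11), 4 without control replicate 1 and 5 without control replicate 3, while 13 rose without D10 replicate 1.

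**Figure D1:**
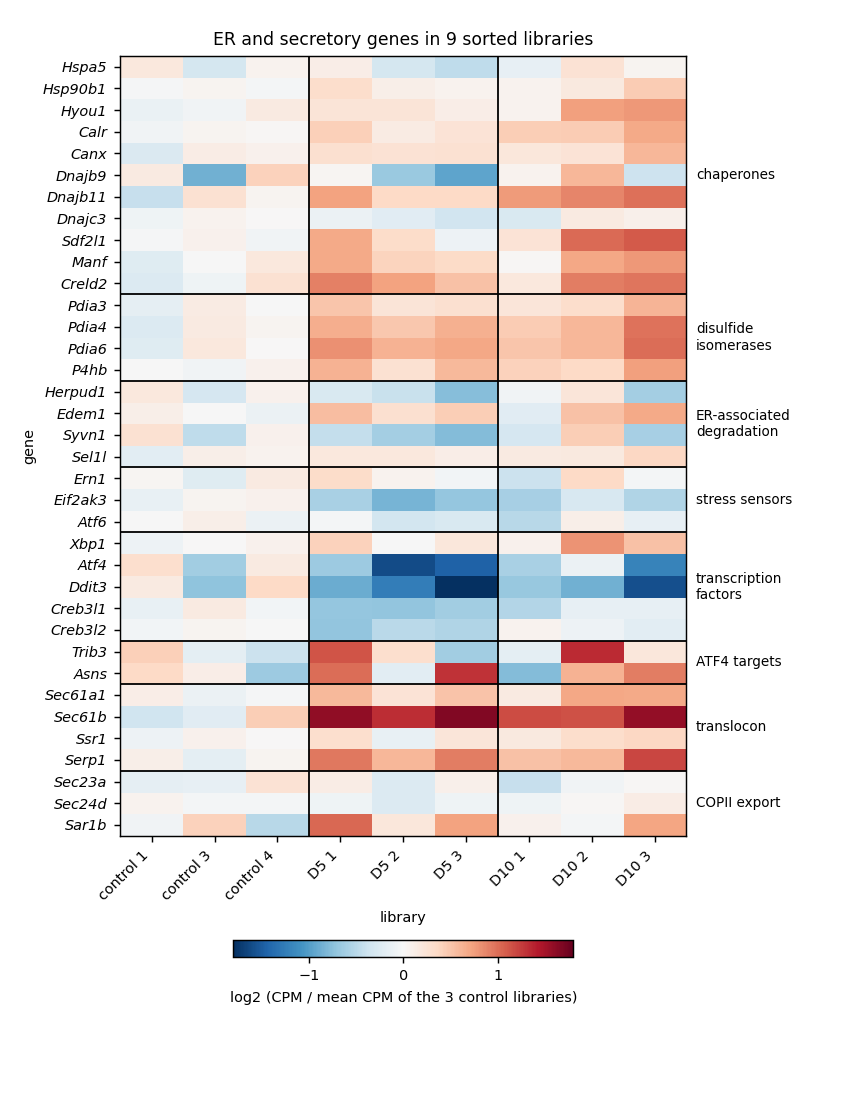
Levels of the 36 measured members (rows, grouped by role) in the 9 sorted libraries (columns) as log2 of CPM over the mean CPM of the 3 controls, with red for higher and blue for lower values. The translocon and disulfide isomerase rows are red in the 6 EAE libraries for Sec61b, Serp1, Pdia4, Pdia6 and P4hb, while Atf4, Ddit3 and Eif2ak3 are blue in them.

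Import into the ER. The translocon held the largest rise of the set. Sec61b (ENSMUSG00000053317), the beta subunit of the Sec61 channel, stood at 6.98, 7.75 and 12.2 CPM in the controls, 27.1, 22.4 and 28.4 CPM at D5 and 20.2, 19.8 and 26.9 CPM at D10, in the order of the replicate numbers. All 6 EAE libraries lay above all controls. The log2 fold change was 1.53 ± 0.25 (SE, adjusted p = 0.00100) at D5, or 2.88-fold, and 1.31 ± 0.25 (SE, adjusted p = 0.00492) at D10, or 2.48-fold. Serp1, a small membrane protein that guards newly made proteins at the channel, had 71.6, 58.9 and 68.9 CPM in the controls, 128, 100.4 and 126 CPM at D5 and 95.5, 100.1 and 153 CPM at D10. Here too the groups did not overlap, and D10 replicate 3 was the highest. Its log2 fold change was 0.83 ± 0.19 (SE, adjusted p = 0.00739) at D5 and 0.81 ± 0.19 (SE, adjusted p = 0.0152) at D10. Sec61a1, the pore of the channel, had 180.3, 155 and 164 CPM in the controls, 250.1, 197 and 237 CPM at D5 and 186, 270.4 and 268 CPM at D10. No EAE library reached down to the controls, and the log2 fold change was 0.46 ± 0.16 (SE, adjusted p = 0.0637) at D5 and 0.54 ± 0.16 (SE, adjusted p = 0.0490) at D10. Ssr1, of the complex that helps proteins through the channel, did not pass the test at either time (0.14 ± 0.14 and 0.29 ± 0.14, log2 with SE).

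The calls of Sec61b held in all 14 alternative settings at both times. At D10 that of Serp1 ended without control replicate 3 or D10 replicate 3. That of Sec61a1 at D10 ended in 9 of the 14, among them each of control replicates 1, 3 and 4 and D10 replicates 2 and 3 left out. At D5 it passed with no filter, with DESeq2 and when only the 2 groups were fitted.

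Disulfide bonds. All 4 disulfide isomerases, which form and reshuffle disulfide bonds in folding proteins, had every EAE library above every control at both times. Pdia6 (ENSMUSG00000020571) stood at 126, 168 and 148 CPM in the controls, 261, 227 and 239 CPM at D5 and 209, 222 and 297 CPM at D10. The log2 fold change was 0.72 ± 0.16 (SE, adjusted p = 0.00720) at D5 and 0.72 ± 0.16 (SE, adjusted p = 0.0128) at D10, 1.64-fold at D5 and 1.64-fold at D10. Pdia4 had 203, 270.0 and 248 CPM in the controls, 377, 337 and 376 CPM at D5 and 329.6, 365 and 474 CPM at D10. D10 replicate 3 stood highest of all. Pdia4 rose by 0.60 ± 0.16 (SE, adjusted p = 0.0181) on the log2 scale at D5 and by 0.70 ± 0.16 (SE, adjusted p = 0.0144) at D10. P4hb, an isomerase that is also a subunit of the prolyl hydroxylase of collagen, had 480.4, 463 and 508 CPM in the controls, 744, 587 and 728 CPM at D5 and 646, 622 and 806 CPM at D10. Its rise was 0.51 ± 0.15 (SE, adjusted p = 0.0246) at D5 and 0.52 ± 0.15 (SE, adjusted p = 0.0351) at D10. Pdia3, which works on glycoproteins, did not pass the test (0.35 ± 0.15, adjusted p = 0.111, and 0.39 ± 0.15, adjusted p = 0.106).

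Of these calls, that of Pdia6 ended at D10 without D10 replicate 3. That of Pdia4 ended without D5 replicates 1 or 3 or control replicates 1 or 4 at D5, and without D10 replicate 3 or control replicate 1 at D10. P4hb lost its call at D5 without any 1 of the 3 controls or D5 replicates 1 or 3, and at D10 without any 1 of the controls or D10 replicates 1 or 3 or when only the 2 groups were fitted.

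**Figure D2:**
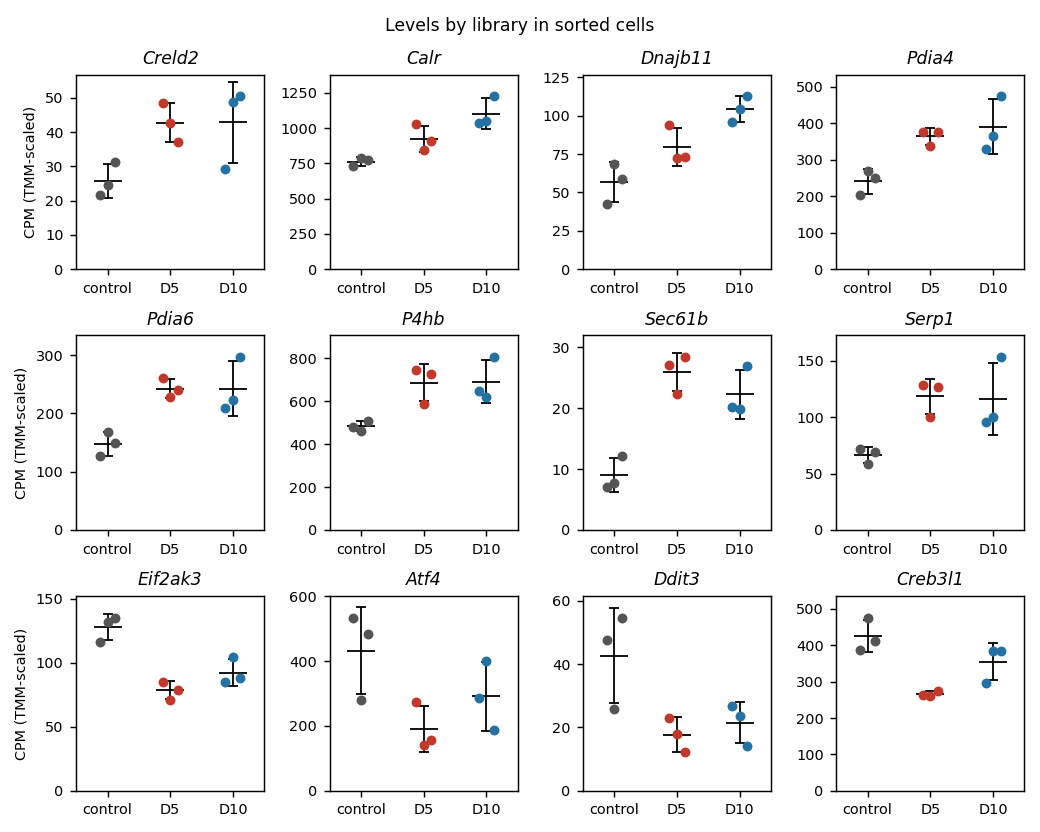
TMM-scaled CPM of 12 members called in at least 1 EAE comparison, by library (points), with the mean and SD of each group of 3 (line and bars) and axes that start at 0. In proportion, Sec61b shows the widest gap between the controls (6.98 to 12.2 CPM) and the EAE libraries (19.8 to 28.4 CPM), while Atf4 and Ddit3 vary among the controls as well.

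Chaperones. The 11 chaperones did not move as a block. Creld2, an ER protein with isomerase activity, passed the test at both times. It had 21.7, 24.5 and 31.3 CPM in the controls, 48.6, 42.7 and 37.1 CPM at D5 and 29.3, 48.7 and 50.5 CPM at D10. At D5 no library overlapped the controls, while D10 replicate 1 lay below control replicate 4. The log2 fold change was 0.73 ± 0.22 (SE, adjusted p = 0.0325) at D5 and 0.73 ± 0.22 (SE, adjusted p = 0.0483) at D10. Dnajb11, the co-chaperone ERdj3 of the Hsp70 chaperone BiP, had 42.6, 68.5 and 58.8 CPM in the controls, 93.9, 72.5 and 72.9 CPM at D5 and 96.1, 104 and 113 CPM at D10. It rose by 0.88 ± 0.18 (SE, adjusted p = 0.00777) at D10 and did not pass at D5 (0.49 ± 0.18, adjusted p = 0.0663), although the groups did not overlap at either time. Calr, the lectin chaperone calreticulin, had 728, 786 and 772 CPM in the controls, 1026, 843 and 906 CPM at D5 and 1037, 1048 and 1227 CPM at D10. It too passed at D10 (0.53 ± 0.13, adjusted p = 0.0188) and not at D5 (0.28 ± 0.13, adjusted p = 0.144), with every EAE library above the controls.

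Hspa5, which encodes BiP itself and is the classic target gene of the unfolded protein response, had 1319.7, 929 and 1208 CPM in the controls, 1258, 921 and 837 CPM at D5 and 1037, 1382 and 1196 CPM at D10. The groups overlapped at both times, with log2 fold changes of -0.20 ± 0.19 (SE, adjusted p = 0.483) at D5 and 0.06 ± 0.19 (SE, adjusted p = 0.865) at D10. The other chaperones also missed the threshold in edgeR's test as reported. On the log2 scale with SE, the exchange factor Hyou1 had 0.20 ± 0.18 at D5 and 0.56 ± 0.18 at D10, and Sdf2l1, a partner of Dnajb11, had 0.34 ± 0.26 and 0.84 ± 0.26 with adjusted p-values of 0.0559 for Hyou1 and 0.0526 for Sdf2l1 at D10. Manf, a secreted protein of the ER stress response, had 0.49 ± 0.20 and 0.54 ± 0.20. Hsp90b1 (GRP94) had 0.17 ± 0.14 and 0.24 ± 0.14, and the lectin chaperone calnexin, Canx, 0.27 ± 0.15 and 0.36 ± 0.15. The co-chaperones Dnajb9 and Dnajc3 had -0.47 ± 0.34 and -0.22 ± 0.14 at D5 and 0.15 ± 0.33 and 0.0008 ± 0.14 at D10.

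Creld2 lost its call at D5 without control replicates 1 or 3 or D5 replicates 1 or 2, and at D10 in 9 of the 14 alternative settings. Calr lost its call at D10 without control replicates 1 or 4 or D10 replicate 3, while Hyou1, Sdf2l1 and Manf passed at D10 without D10 replicate 1 or with no filter on low counts, Hyou1 and Sdf2l1 also with DESeq2, and Hyou1 also with all 11 libraries in 1 fit. At D5 Dnajb11 passed with no filter or without control replicate 3, and Manf when only the 2 groups were fitted. Of the 8 members with an ER stress response element of the searched form in the window, 2 were called higher at D5 and 3 at D10. Of the 23 measured members whose window held no match of this exact form, 4 and 5 were called higher. Variants of the element were not searched, so a window without a match may still hold one. Called lower were 0 and 0 of the 8, against 4 and 1 of the 23. Over all genes, 13.2% and 8.38% were called higher and 10.7% and 4.99% lower. No test was run on these counts.

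Degradation and export. With edgeR's test 0 of the 4 degradation genes were called at either time, nor by DESeq2 or limma voom, and at an unadjusted p under 0.05 there were 3 at D5 and 0 at D10. The ubiquitin-like protein gene Herpud1 had a log2 fold change of -0.47 ± 0.21 at D5 and -0.11 ± 0.21 at D10, and Syvn1, which encodes the ligase HRD1, -0.60 ± 0.25 and -0.08 ± 0.25. The lectin gene Edem1 had 0.44 ± 0.20 and 0.38 ± 0.20, and Sel1l, the partner of HRD1, 0.17 ± 0.13 and 0.24 ± 0.13. The adjusted p-values of the 4 genes at D5 ran from 0.108 (Syvn1) to 0.380 (Sel1l). Of the 3 measured export genes 0 were called with any of these tools, with 1 at an unadjusted p under 0.05 at D5 and 0 at D10. The coat genes Sec23a and Sec24d, the second of which is needed to package procollagen, had 0.0034 ± 0.17 and -0.13 ± 0.12 at D5 and -0.14 ± 0.17 and 0.03 ± 0.12 at D10. Sar1b, the GTPase that starts the coat, had 0.70 ± 0.31 and 0.29 ± 0.31, at 7.75 to 22.3 CPM in the 9 libraries. Syvn1 (lower) and Edem1 (higher) passed at D5 when only controls and D5 were fitted, Syvn1 also without control replicate 3 or with no filter, and Edem1 passed at D10 without D10 replicate 1.

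Sensors and transcription factors. In this class the calls at D5 were all falls. Eif2ak3 (ENSMUSG00000031668), which encodes the sensor PERK, had 116, 132 and 135 CPM in the controls, 85.3, 71.2 and 78.7 CPM at D5 and 84.6, 104 and 88.0 CPM at D10. Every EAE library lay below every control, and the fitted difference was -0.70 ± 0.14 (SE, adjusted p = 0.00334) at D5 and -0.47 ± 0.14 (SE, adjusted p = 0.0420) at D10 on the log2 scale. The call at D5 held in all 14 alternative settings, and that at D10 ended without control replicates 3 or 4 or D10 replicates 1 or 3, among others. The other sensors did not pass: Ern1 had 0.12 ± 0.19 at D5 and 0.0094 ± 0.19 at D10, and Atf6 -0.21 ± 0.17 and -0.16 ± 0.17.

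Atf4 (ENSMUSG00000042406), the factor downstream of PERK and of other stress kinases, had 534, 279 and 483 CPM in the controls, 274, 142 and 157 CPM at D5 and 288, 399.8 and 187 CPM at D10. The D5 libraries lay below the controls, the closest pair being D5 replicate 1 and control replicate 3, and D10 overlapped the controls. The log2 fold change was -1.18 ± 0.32 (SE, adjusted p = 0.0174) at D5 and -0.57 ± 0.31 (SE, adjusted p = 0.265) at D10. Ddit3, which encodes the pro-apoptotic factor CHOP and is a target of ATF4, had 47.6, 25.8 and 54.6 CPM in the controls, 23.0, 18.0 and 12.1 CPM at D5 and 26.7, 23.5 and 14.2 CPM at D10. Controls and D5 did not overlap, while D10 replicate 1 lay above control replicate 3. Its log2 fold change was -1.27 ± 0.32 (SE, adjusted p = 0.0125) at D5 and -0.99 ± 0.31 (SE, adjusted p = 0.0561) at D10. Without control replicate 4 or D5 replicate 3 the D5 calls of Atf4 and Ddit3 ended, and that of Atf4 also without control replicate 1 or D5 replicate 2. Ddit3 was called lower at D10 with DESeq2, with no filter, with the replicate number as a block and without control replicate 3.

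The membrane-bound factors fell at D5 with little spread. Creb3l1 (ENSMUSG00000027230), known as OASIS and needed for collagen secretion in mouse bone, had 388, 476 and 412 CPM in the controls, 263, 259 and 275 CPM at D5 and 297, 384 and 385 CPM at D10. Its log2 fold change was -0.68 ± 0.14 (SE, adjusted p = 0.00452) at D5 and -0.26 ± 0.14 (SE, adjusted p = 0.254) at D10, where the highest library lay just below the lowest control. Creb3l2, known as BBF2H7 from cartilage, had 342, 369 and 354 CPM in the controls, 216, 253 and 245 CPM at D5 and 372, 334 and 312 CPM at D10. It fell by 0.58 ± 0.13 (SE, adjusted p = 0.00605) on the log2 scale at D5, and D10 overlapped the controls (-0.07 ± 0.13, adjusted p = 0.787). Both D5 calls held in all 14 alternative settings. Xbp1, whose spliced form is a factor for degradation genes and some chaperone genes, had 148, 158 and 167 CPM in the controls, 209.9, 157 and 182 CPM at D5 and 167, 275 and 227 CPM at D10. It did not pass at D5 (0.21 ± 0.18, adjusted p = 0.420) or D10 (0.50 ± 0.18, adjusted p = 0.0846), and passed at D10 without D10 replicate 1 or with no filter.

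The ATF4 targets of the set were low and scattered. Asns, asparagine synthetase, had 9.06, 7.64 and 4.50 CPM in the controls, 14.2, 6.18 and 17.4 CPM at D5 and 4.13, 10.9 and 13.4 CPM at D10, with log2 fold changes of 0.84 ± 0.47 at D5 and 0.43 ± 0.47 at D10. Trib3, a pseudokinase, stood between 1.05 and 4.14 CPM in the 9 libraries, which is 8 to 43 counts, and had 0.45 ± 0.66 and 0.62 ± 0.65. For both genes the libraries of each EAE group overlapped the controls, and neither passed the test. At this depth the sign of Trib3 at D5 changed in 1 of 14 alternative settings.

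**Figure D3:**
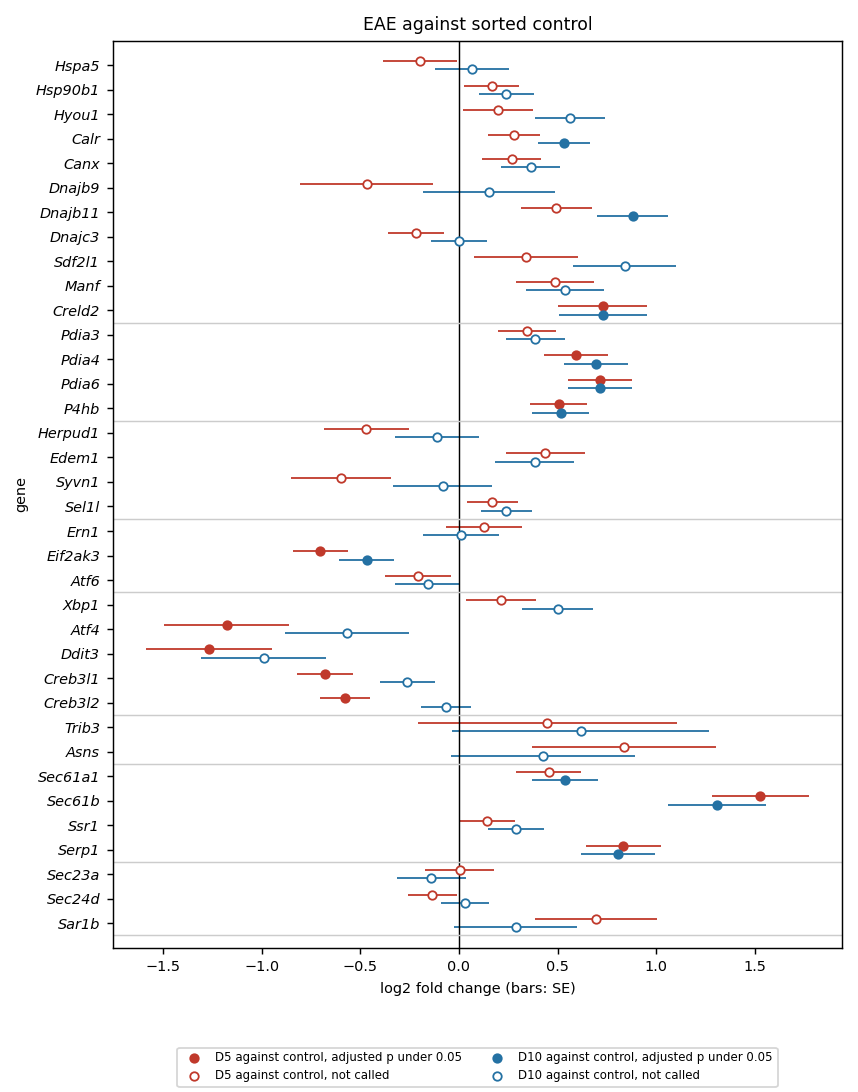
Log2 fold change of each measured member at D5 (red) and D10 (blue) against sorted control, with bars for the SE and filled points for an adjusted p under 0.05. Sec61b stands farthest to the right (1.53 and 1.31) and Ddit3 and Atf4 farthest to the left at D5 (-1.27 and -1.18), while Hspa5 lies near 0 at both times.

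Genes of the response to dissociation were high and low in much the same libraries as Atf4. The 14 listed genes (immediate-early genes such as Fos, Jun and Egr1 and heat shock genes such as Hspa1a) summed to 22120, 12090 and 22030 CPM in the controls, 12490, 6350 and 6977 CPM at D5 and 18120, 20560 and 7151 CPM at D10. At D5, 4 of the 14 fell (Egr1, Ier2, Dnajb1 and Socs3) with a median log2 fold change of -1.02, and at D10 0 of 14 were called by edgeR, DESeq2 or limma voom (0 at an unadjusted p under 0.05 in edgeR), with a median of -0.26. As multiples of the control mean, the summed list stood at 1.18, 0.645 and 1.18 in the controls, 0.666, 0.339 and 0.372 at D5 and 0.967, 1.10 and 0.381 at D10. Atf4 stood at 1.24, 0.647 and 1.12 in the controls, 0.634, 0.328 and 0.364 at D5 and 0.666, 0.926 and 0.434 at D10.

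Control replicate 3 and D10 replicate 3 were thus low within their groups for both measures. Ddit3 had multiples of 1.12, 0.605 and 1.28 in the controls, 0.539, 0.422 and 0.284 at D5 and 0.625, 0.550 and 0.333 at D10, where replicate 2 was low for Ddit3 and not for the list. Among the controls, replicate 3 was also the lowest for Dnajb9 (0.548), Herpud1 (0.807), Syvn1 (0.727) and Hspa5 (0.806). At D10, replicate 3 was the lowest for Dnajb9, Herpud1 and Syvn1, and replicate 1 for Hspa5. Pdia6, in contrast, stood at 0.857, 1.14 and 1.01 in the controls, 1.77, 1.54 and 1.62 at D5 and 1.42, 1.51 and 2.01 at D10. The part of the dissociation response in the values of Atf4, Ddit3 and the other members was not tested.

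**Figure D4:**
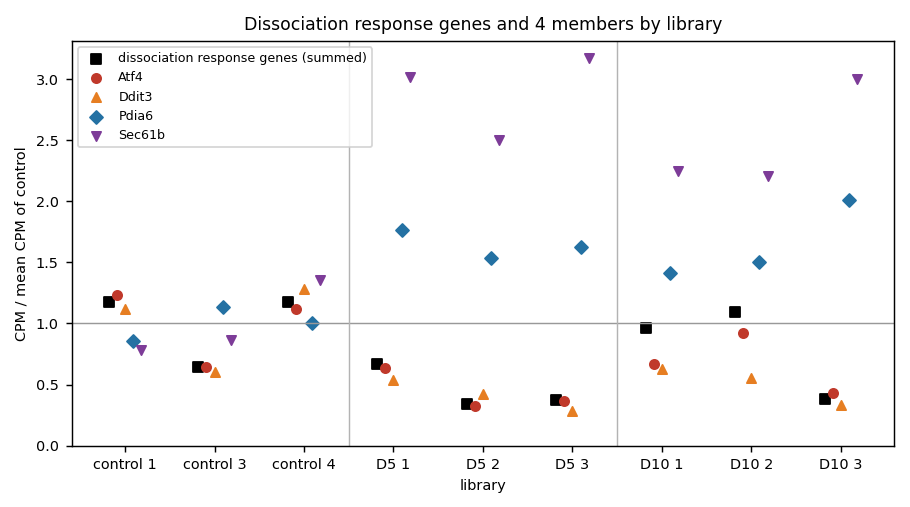
Summed CPM of 14 dissociation response genes (squares) and CPM of 4 members, each divided by its mean over the 3 controls, in the 9 sorted libraries. Atf4 lies below the squares in D10 replicate 1 (0.666 against 0.967), while Pdia6 and Sec61b stand above 1 in all 6 EAE libraries.

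Summed markers of several other cell types, and cycling genes, also stood higher in the EAE libraries than in the controls. Neuronal markers did not, with 18.1 to 24.9 CPM at D5 and 8.25 to 18.2 CPM at D10. In the controls they summed to 7.47 to 25.5 CPM. Of the 3 neuronal markers tested, 1 was called higher at each time. Oligodendrocyte markers summed to 87.8 to 117.9 CPM in the controls, 97.9 to 173.1 CPM at D5 and 143.8 to 183.1 CPM at D10. Of the 7 tested, 2 were higher at D5 and 1 at D10. Pan-leukocyte markers summed to 5.74 to 26.6 CPM in the controls, 168.5 to 324.4 CPM at D5 and 112.5 to 185.4 CPM at D10, and all 8 rose at D5 and 7 of 8 at D10. Markers of B and plasma cells, which secrete in bulk, summed to 52.6 to 70.7 CPM in the controls, 121.6 to 183.9 CPM at D5 and 117.6 to 172.5 CPM at D10. Of the 10 listed, 6 were tested, with 3 higher and 1 lower at D5 and 4 higher at D10. Sdc1, which is not particular to these cells, gave 419 to 1157 counts in each of the 9 libraries, more than the other listed genes together in all of them except D10 replicate 1. The B cell gene Cd79a had 57, 9 and 69 counts in the controls, 9, 6 and 1 at D5 and 12, 20 and 11 at D10. The J chain gene Igj had no count in the controls, 183, 53 and 43 counts at D5 and 707, 285 and 128 at D10, while Ms4a1, which encodes CD20, had none in the controls or at D5. The T cell markers summed to 1.24 to 4.12 CPM in the controls, 69.5 to 139.9 CPM at D5 and 30.7 to 44.8 CPM at D10, with 7 of 8 higher at both times. Those of macrophages and microglia summed to 49.3 to 54.5 CPM, 80.7 to 109.3 CPM and 104.5 to 229 CPM in the same order, with 6 and 8 of 11 higher. Cycling genes, which are not particular to a cell type, summed to 34.9 to 69.2 CPM, 389.3 to 404.7 CPM and 125.8 to 284.3 CPM, with 8 and 7 of 8 higher. Endothelial markers summed to 253 to 291.5 CPM in the controls, 495.9 to 594.8 CPM at D5 and 412.3 to 473.8 CPM at D10, with 2 of 7 tested higher at both times. Astrocyte markers summed to 731.4 to 820.2 CPM, 1027 to 1143 CPM and 1046 to 1136 CPM, with 3 of 8 higher at both times and 2 lower at D5 and 1 at D10. The part of any of these cells, or of cell division, in the values of the members was not tested.

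Mitochondrial ribosomal RNA took 3.60% to 4.05% of counts in the controls, 5.87% to 7.10% at D5, 4.07% to 5.03% at D10, and 14.3% and 17.2% in whole cord. No EAE library overlapped the controls. Its part in the values of the members was not tested.

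Genes of secreted matrix, a cargo of this machinery, were measured beside it in the sorted cells. Of 10 matrix genes, 7 rose and 2 fell at D5 (Dcn and Lum), and 8 rose and 1 fell at D10 (Dcn). They summed to 23940, 31490 and 28900 CPM in the controls, 51410, 40770 and 56650 CPM at D5 and 49220, 34920 and 75590 CPM at D10. D10 replicate 3, the highest D10 library for Pdia4, Pdia6, P4hb, Calr, Dnajb11, Serp1 and Sec61b, was also the highest of all for this sum. The order of the other D10 libraries differed between genes. D10 replicate 2, the lowest D10 library for the sum, lay above D10 replicate 1 for Pdia4, Pdia6, Calr, Dnajb11 and Serp1. For P4hb and Sec61b it lay below D10 replicate 1. Col1a1 itself, which drives the reporter, rose by 1.16 ± 0.30 (SE, adjusted p = 0.0147) at D5 and 1.47 ± 0.30 (SE, adjusted p = 0.00806) at D10 on the log2 scale. The part of the cargo in the values of the members was not tested.

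Other genes of the same pathways, from lists of their own, are set against the same background of 13.2% higher and 10.7% lower at D5 and 8.38% and 4.99% at D10. Of 27 other folding enzymes, 4 rose and 2 fell at D5, and 3 rose and 0 fell at D10. The largest were Ppic, a cyclophilin of the ER, at 123 ± 24.4 against 29.7 ± 3.85 CPM at D5 (log2 2.04 ± 0.23, adjusted p = 0.000112) and 1.96 ± 0.22 at D10, and the isomerase gene Pdia5 (1.56 ± 0.27 and 1.73 ± 0.27). Of 20 other degradation genes 0 were called by edgeR at either time, with medians of 0.086 and 0.19. At an unadjusted p under 0.05 there were 3 at D5 and 1 at D10, and DESeq2 called 1 at D5. Of 28 other genes of import, signal cleavage and glycan transfer, 4 rose and 1 fell at each time. Among them Ssr3, of the complex of Ssr1, rose by 0.95 ± 0.17 at D5, and the signal peptidase gene Sec11c fell, with -1.21 ± 0.21. At D10 Ostc and Ssr2 rose, by 0.79 ± 0.19 and 0.76 ± 0.20.

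Of 40 other genes of transport between ER and Golgi, 2 rose and 0 fell at each time, among them the cargo receptor gene Surf4 (0.50 ± 0.14 and 0.51 ± 0.14), with Gosr2 (0.46 ± 0.14) at D5 and Sec16b (0.79 ± 0.22) at D10. Of 25 other genes of the integrated stress response, 6 rose and 2 fell at D5, and 3 rose and 2 fell at D10. The falls were Vldlr and Atf5 at both times: Vldlr had -1.93 ± 0.19 and -1.08 ± 0.18, and Atf5 -1.40 ± 0.17 and -1.01 ± 0.16. The cystine transporter gene Slc7a11, also a known ATF4 target, rose by 1.35 ± 0.22 (SE, adjusted p = 0.00103) at D5 and 1.04 ± 0.22 (SE, adjusted p = 0.00859) at D10, so that listed targets of ATF4 moved in both directions. Of 16 other regulators, 2 rose at each time, Eif2s1, which encodes the initiation factor that PERK phosphorylates (0.85 ± 0.18 and 0.73 ± 0.18), and Eif2ak2, the kinase PKR (0.63 ± 0.15 and 0.66 ± 0.15).

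The second question was whether D10 differed from D5. With edgeR's quasi-likelihood test 0 of 36 members were called, beside 0.0751% of all genes higher and 0.0563% lower, which is 21 genes. At an unadjusted p under 0.05 there were 2 members, Creb3l1 and Creb3l2, both higher at D10. Creb3l2 had 0.51 ± 0.13 (SE, adjusted p = 0.189) on the log2 scale and Creb3l1 0.42 ± 0.14 (SE, adjusted p = 0.421). DESeq2 called Creb3l2 alone (adjusted p = 0.0132, the lowest of its 14 alternatives, which ran up to 0.639), and limma voom called none. The libraries of D10 lay above those of D5 without overlap for 5 members (13.9%, background 6.48%), which were Creb3l1, Creb3l2, Calr, Dnajb11 and Sec24d, and below for 0 (background 7.66%). The median log2 fold change of the members was 0.13, against 0.0057 over all genes.

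The largest differences were not those with the least spread. Dnajb9 had 0.62 ± 0.34, Atf4 0.61 ± 0.31 and Syvn1 0.52 ± 0.25, and for each D10 replicate 2 was the highest D10 library and replicate 3 the lowest, as for the summed dissociation response genes. The fitted differences of the isomerases were small, with Pdia6 at 0.00033 ± 0.16, P4hb at 0.01 ± 0.15 and Pdia4 at 0.10 ± 0.16. Creb3l1, Creb3l2, Atf4 and Ddit3 were called by edgeR at D5 and not at D10, and edgeR called no difference between the times for them. Without D10 replicate 3 the number of all genes called was 218, and 0 members were among them. In the 6 other pathway lists edgeR called 0 genes. At an unadjusted p under 0.05 there were 4 higher and 1 lower folding enzymes and at most 2 genes of any other list, and DESeq2 called 1 stress response gene where limma voom called 0.

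The third question was how healthy sorted cells compare with whole cord. Members were higher in the sorted cells as a rule: 29 of 36 (80.6%) were called higher, beside 26.9% of 16562 genes tested, and 4 (11.1%) lower, beside 28.7%. The median log2 fold change was 1.21, against 0.038 over all genes. All 5 transcription factors, all 4 isomerases and all 4 translocon genes were higher, with 10 of 11 chaperones, 3 of 4 degradation genes and 2 of 3 sensors. Canx, Sel1l, Sar1b and Asns were lower, and Atf6, Trib3 and Sec23a were not called. Libraries did not overlap for 30 higher members (83.3%, background 36%) and 4 lower ones (11.1%, background 38.3%). The 36 members took 0.771% ± 0.0323 (SD, n = 3) of all counts in the sorted controls and 0.267% ± 0.0228 (n = 2) in whole cord, against 0.801% ± 0.0616 at D5 and 0.873% ± 0.0853 at D10 (n = 3 each). CPM values in this comparison are scaled over the 5 healthy libraries and so differ slightly from those above.

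Creb3l1 separated the 2 kinds of sample most. It had 366, 442 and 390.2 CPM in the sorted controls and 3.81 and 4.54 CPM in the cords, the latter from 31 and 49 counts. The log2 fold change was 6.57 ± 0.20 (SE, adjusted p = 1.22e-06), or 94.8-fold. Creb3l2 had 322, 344 and 335 CPM in the sorted controls and 46.9 and 50.3 CPM in the cords, with 2.78 ± 0.13 (SE, adjusted p = 4.00e-06). The coat gene Sec24d had 183, 168 and 172 CPM in the sorted controls and 11.3 and 12.8 CPM in the cords. It was 14.5-fold higher (3.85 ± 0.15, adjusted p = 2.20e-06), while its partner Sec23a differed by 0.05 ± 0.17, with overlapping libraries. For Creb3l1, Creb3l2 and Sec24d the lowest sorted library lay far above both cords.

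Hspa5 had 1242, 865 and 1142 CPM in the sorted controls and 244 and 194 CPM in the cords and differed by 2.30 ± 0.21 (SE, adjusted p = 6.46e-05) on the log2 scale. Sec61a1 had 169.7, 144 and 155 CPM in the sorted controls and 31.1 and 32.9 CPM in the cords (2.29 ± 0.15, adjusted p = 1.25e-05), and P4hb 452, 430.5 and 481 CPM in the sorted controls and 106 and 99.9 CPM in the cords (2.14 ± 0.13, adjusted p = 1.06e-05). Among the sensors Ern1 was higher, with 58.8, 48.7 and 64.9 CPM in the sorted controls and 13.1 and 15.4 CPM in the cords (2.01 ± 0.20, adjusted p = 0.000107), as was Eif2ak3 (1.43 ± 0.15). Syvn1 led the degradation genes, with 98.8, 58.5 and 86.8 CPM in the sorted controls and 30.3 and 29.0 CPM in the cords (1.46 ± 0.24, adjusted p = 0.00150). Xbp1 was 4.30-fold higher (2.10 ± 0.15). Atf4 had 502, 260.0 and 457 CPM in the sorted controls and 73.0 and 59.9 CPM in the cords, with 2.61 ± 0.30 (SE, adjusted p = 0.000251).

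In the opposite direction, Asns had 8.53, 7.11 and 4.26 CPM in the sorted controls and 47.6 and 46.3 CPM in the cords, 7.11-fold lower in the sorted cells (-2.83 ± 0.29, adjusted p = 0.000129). Canx (-0.50 ± 0.15), Sel1l (-0.47 ± 0.14) and Sar1b (-0.85 ± 0.30) differed less. Of these 4 members, Asns alone was called when whole cord replicate 1 was left out, and without whole cord replicate 3 the count of lower members was 2, which leaves 1 cord library that is assumed to vary like the others. The count of higher members ran from 21 without whole cord replicate 3 to 28 without control replicates 1 or 3. Calls of Hyou1, Dnajb11, Sec61b, Sdf2l1, Ddit3 and Ssr1 ended without either cord, those of Dnajb9 and Creld2 without cord replicate 3, and those of the first 5 also without control replicate 4. Several of these also ended under other settings, such as the replicate block.

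**Figure D5:**
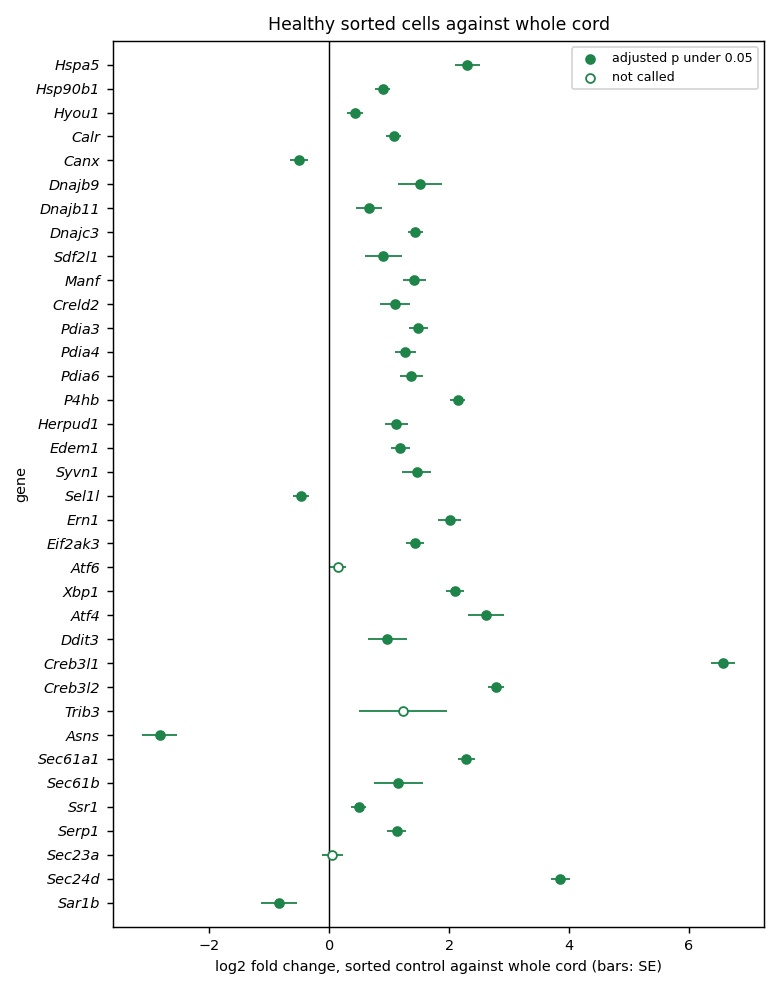
Log2 fold change of each measured member between healthy sorted cells and whole cord, with bars for the SE and filled points for an adjusted p under 0.05. Creb3l1 (6.57) and Sec24d (3.85) stand farthest to the right and Asns (-2.83) farthest to the left.

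The other genes of the pathways followed in part. Of 27 folding enzymes 19 were higher and 1 lower, of 40 transport genes 28 and 3, and of 28 import genes 15 and 2, against the background of 26.9% and 28.7%. Of 20 degradation genes 6 were higher and 3 lower, of 26 stress response genes 10 and 9 (the lower ones, looked up after their values were seen, include the tRNA synthetase genes Aars, Gars, Nars, Wars and Sars), and of 16 regulators 6 and 3. Kdelr3, a receptor that returns ER proteins from the Golgi, was 51.4-fold higher (5.68 ± 0.37, adjusted p = 1.40e-05), and Fkbp7, a prolyl isomerase of the ER, 24.7-fold (4.63 ± 0.22, adjusted p = 4.05e-06). Further log2 fold changes were 4.51 for Ppic, 3.80 for Tram2, a translocon protein linked to collagen synthesis, 4.81 for Sec16b, 1.89 for Stt3a, 1.93 for Selenos and -1.59 for Rnf5. The regulators Bbc3 and Nfe2l2 had 2.09 and 1.41.

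The stress factor Atf3, which is also an immediate-early gene, stood at 162 ± 85.3 against 0.894 ± 0.570 CPM (log2 7.41 ± 0.76, adjusted p = 0.000138), and Nupr1 at 203 ± 45.9 against 2.91 ± 1.51 CPM (6.07 ± 0.36, adjusted p = 9.47e-06). The 14 dissociation response genes summed to 11250 to 20840 CPM in the sorted controls and to 490.5 and 527 CPM in whole cord, with 13 higher and 1 lower. Dissociation, sorting and pooling were done for the sorted cells and, per the design text, not for the homogenate. The cords also came from mice without the reporter, so preparation, mouse line and cell identity cannot be told apart in this comparison.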

How the data were processed

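RNA of 11 libraries (paired-end reads of 100 bases) was measured as whole-number counts of reads per gene, which the authors deposited as 1 table. Per the submitters' processing notes, the pipeline used genome build mm9 and named HTSeq 0.6.1, TopHat2 2.0.11 with Bowtie2 2.2.1, DESeq2 and SAMtools 0.1.19; no source used here gives the annotation or the strand setting, so reads of a gene and of an overlapping antisense gene cannot be told apart. A further 15 deposited columns of normalised or mean values were not used. Groups came from the sample titles and stages. Totals of 7123291 to 12238751 counts set the precision, and 24 symbols that a spreadsheet had turned into dates were restored.

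Counts were filtered (filterByExpr), TMM-scaled and compared in edgeR 4.0.16 (quasi-likelihood test, R 4.3.3), with p-values adjusted by Benjamini-Hochberg over all genes tested and a threshold of 0.05. The 9 sorted libraries shared 1 fit, and the 5 healthy libraries another. The procedure was tested on simulated data. Alternatives were RLE size factors, no filter, a filter at 1 CPM, DESeq2 1.42.0, voom of limma 3.58.1 and all 11 libraries in 1 fit. Further alternatives were only the 2 groups compared, a replicate block, and each library of the groups compared left out. Values in full were given for the 6 called members with the largest change per comparison and the leading called member of each role, and for Hspa5, Xbp1, Asns and other called members added to these; of each other pathway list, the 2 called genes with the largest change at 5 CPM or more were named, and some were then followed across comparisons. The members and lists were chosen with earlier results of these data known. Promoter windows were read from the RefSeq table of GRCm38.p6, another build than that of the counts, and matched by symbol.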

Additional observations from a re-analysis of the deposited data

How the results depend on the processing

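No member called as reported changed direction under any alternative. Called under every alternative were 6 of 11 members at D5, 2 of 10 at D10 and 22 of 33 in the comparison with cord. Uncalled members changed sign under some alternative in 2 cases at D5, 8 at D10, 14 between D10 and D5 and 1 against cord, with reported log2 changes of at most 0.448, 0.152, 0.170 and 0.0511 in size. Leaving out 1 library gave 3 to 5 members higher and 3 to 6 lower at D5 (2446 to 3588 genes called in all), 2 to 13 higher and 0 to 1 lower at D10 (1045 to 2031 genes), 0 members between D10 and D5 (1 to 218 genes), and 21 to 28 higher and 1 to 4 lower against cord (5973 to 10054 genes). At D10, 2 members were lower with DESeq2 and 0 when only the 2 groups were fitted. Between D10 and D5, 1 member was higher with DESeq2, and all genes called were 265 without a filter, 182 with DESeq2, 33 with limma voom and 3 with only the 2 groups, against 21. The causes were not tested. With the replicate number as a block, 5 members were higher and 5 lower at D5, 7 and 1 at D10, 0 and 0 between the times and 23 and 1 against cord. Same-numbered libraries had correlations of deviations from -0.0949 to 0.179, so the numbers were not taken to pair the samples. Trib3 had the fewest counts of the members, 6 to 43 per library, which limits what it can show. Where the samples are pools, p-values measure the spread between pools.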
